A study of Homo sapiens with 8 samples.

Results

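The clustered protocadherin locus in band 5q31.3 was examined as all 750 windows of 1 kb between positions 140150001 and 140900000 of chromosome 5 (GRCh37), out of 3036292 such windows on chromosomes 1 to 22 and X. The windows were chosen by position alone. The stretch holds the alpha array (chr5:140165001-140392000), the beta array (chr5:140430001-140630000) and the gamma array (chr5:140710001-140893000). Peaks of H3K27me3, a mark of silenced chromatin that the Polycomb enzyme PRC2 deposits on histone H3, had been mapped by chromatin immunoprecipitation and sequencing in MOLM14, an established human acute myeloid leukaemia line with an activating internal duplication in the receptor kinase FLT3. Cells had been given quizartinib (AC220), which inhibits FLT3, or its solvent DMSO for 24 h, and all cultures had Drosophila S2 cells added before lysis as a spike-in. Each treatment had 2 immunoprecipitated libraries, DMSO 1 and DMSO 2 against AC220 1 and AC220 2; 4 input samples were not analysed here. The pair with number 1 in the labels is set 1 here, and the pair with number 2 is set 2. Nothing in the labels ties the libraries of a treatment to separate cultures. Each exact p-value therefore applies to these libraries only, and their scatter may be technical.

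Clustered protocadherins are cell surface adhesion proteins that are best known from neurons, where each cell expresses a small, largely random choice of them and so gains a surface identity. Each alpha and gamma gene has its own promoter and a large variable exon, which encodes the outer part of the protein and is spliced to constant exons shared by the whole array. Beta genes have no constant exons. The C-type genes, which are the last variable exons of the alpha and gamma arrays, are used more uniformly across neurons than the others. The RefSeq table (GRCh38.p14, used for names and order only) lists 15 protein-coding genes in the alpha array, from PCDHA1 to PCDHAC2, 16 in the beta array, from PCDHB1 to PCDHB15, and 22 in the gamma array, from PCDHGA1 to PCDHGC5. The carrier gene SLC25A2 and the transcription initiation factor gene TAF7 are the protein-coding genes between beta and gamma. ZMAT2 and DIAPH1 are the nearest on the outer sides.

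Most protocadherin promoters are known to carry a conserved element with a CGCT core, which the insulator protein CTCF binds; PCDHAC2, PCDHB1, PCDHGC4 and PCDHGC5 are known exceptions. RefSeq held promoters for 47 of the 53 genes. The letters CGCT, on either strand, occurred in the 250 bases before the start of 12 of 13 alpha genes, 13 of 14 beta genes and 20 of 20 gamma genes, against 64.3% of all 27305 genes with such a sequence. The first gene of each array and the last of the alpha array are shown, picked by their place in the gene order. Capitals mark CGCT; all matches in these 4 were on the strand shown, which is the plus strand of chromosome 5 (RefSeq, GRCh38.p14).
PCDHA1: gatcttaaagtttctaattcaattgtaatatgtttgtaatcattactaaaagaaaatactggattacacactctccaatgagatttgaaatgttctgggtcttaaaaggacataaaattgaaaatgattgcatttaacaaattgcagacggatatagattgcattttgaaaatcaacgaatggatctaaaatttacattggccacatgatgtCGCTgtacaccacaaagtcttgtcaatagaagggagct
PCDHAC2: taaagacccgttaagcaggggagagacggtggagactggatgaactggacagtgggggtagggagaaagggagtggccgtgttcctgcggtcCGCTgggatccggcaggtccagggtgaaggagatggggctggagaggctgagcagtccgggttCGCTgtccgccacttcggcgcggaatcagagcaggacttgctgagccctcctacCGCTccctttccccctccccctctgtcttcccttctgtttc
PCDHB1: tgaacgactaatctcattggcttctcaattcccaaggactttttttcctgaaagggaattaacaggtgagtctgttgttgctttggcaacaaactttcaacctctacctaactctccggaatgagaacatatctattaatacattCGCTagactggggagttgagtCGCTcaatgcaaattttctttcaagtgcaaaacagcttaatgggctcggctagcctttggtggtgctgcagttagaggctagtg
PCDHGA1: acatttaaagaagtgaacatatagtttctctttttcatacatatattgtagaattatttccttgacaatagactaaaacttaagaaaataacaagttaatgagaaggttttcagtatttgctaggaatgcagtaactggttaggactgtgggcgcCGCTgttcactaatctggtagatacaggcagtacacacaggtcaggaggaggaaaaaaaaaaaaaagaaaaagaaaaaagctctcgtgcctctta
PCDHA1 and PCDHGA1 each held 1 match and 3 CpG dinucleotides in these 250 bases. PCDHB1 held 2 matches and 5 CpG, and PCDHAC2, a C-type gene, held 3 matches and 13 CpG. In PCDHAC2 and PCDHB1 the marked letters are therefore not the conserved element. A match describes these letters only, and no peak could be placed on a given promoter because the peaks and the sequences are on different builds.

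The mark was unequally spread over the locus: most of it lay in the alpha and beta arrays, the densest part was the constant end of alpha, and gamma was almost bare. The covered share, meaning the percentage of bases that fall within the peaks deposited for a library, was 1.99% of the locus in DMSO 1, 1.81% in AC220 1, 11.9% in DMSO 2 and 10.7% in AC220 2. Over the whole genome the same libraries were covered over 7.49%, 6.20%, 19.1% and 16.04%. The locus therefore had 0.266 and 0.292 times the genome share in set 1 and 0.624 and 0.664 times in set 2. It was nearer to a typical stretch of its length: 41.2%, 43.8%, 44.9% and 48.8% of 4041 tiles of 750 kb were covered less, and the tile medians were 3.599%, 2.71%, 14.2% and 11.4%. These tiles include unassembled sequence, which can hold no peak, so the share of tiles covered less is raised by it. The rest of band 5q31.3 had 8.53%, 9.02%, 19.5% and 17.7%, respectively. The lists hold positions and within-list scores but no read counts, so depth per library is unknown, and a stretch with no listed peak is not shown to lack the mark.

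**Figure D1:**
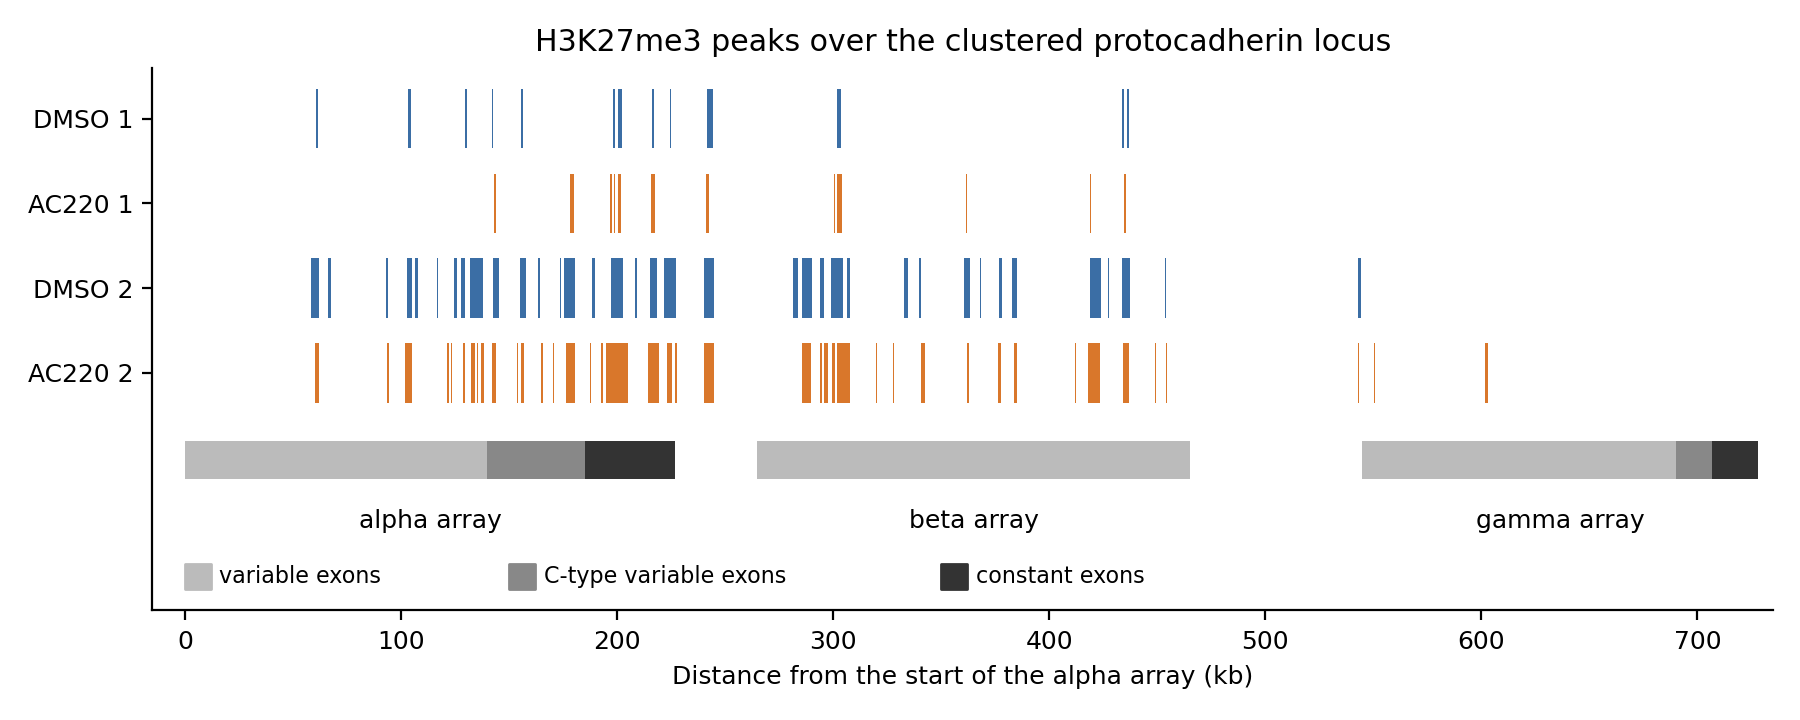
Position of every deposited H3K27me3 peak over the locus, in kb from the start of the alpha array, 1 row per library (blue DMSO, orange AC220), with the arrays drawn below. Peaks gather over alpha and beta in all 4 libraries, while the gamma array holds 2 peaks, both in AC220 2.

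In the alpha array, 10 peaks were listed in DMSO 1, 7 in AC220 1, 19 in DMSO 2 and 20 in AC220 2. They covered 4.02% of the array in DMSO 1, 3.09% in AC220 1, 20.8% in DMSO 2 and 17.9% in AC220 2. Alpha makes up 30.3% of the length of the locus and held 61.0%, 51.7%, 52.8% and 50.7% of its covered bases in that order. Its first genes, from PCDHA1 on, lay in an empty stretch: from the start of the locus to 140223440 no library had a peak, which leaves 73.4 kb uncovered.

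In the beta array, 3 peaks were listed in DMSO 1, 6 in AC220 1, 15 in DMSO 2 and 16 in AC220 2. The covered share was 1.61% in DMSO 1, 2.70% in AC220 1, 17.7% in DMSO 2 and 15.5% in AC220 2, below alpha in every library. The mean difference was 2.05 ± 1.15 percentage points (SD, n = 4 libraries; exact sign-flip permutation test, two-sided, p = 0.125, Benjamini-Hochberg adjusted p = 0.156 over 5 comparisons of segments). That is the smallest p that 4 libraries allow. With every list cut to 1 common length, AC220 2 had the opposite order, at 2.16% for alpha and 3.04% for beta, and the mean difference was 1.47 points (exact permutation p = 0.375). It was 0.615 points with only peaks of -log10 q of at least 2, 1.25 points with DMSO lists cut to match AC220 and 1.16 points with segments shortened by 5 kb.

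In the gamma array, no peak was listed in DMSO 1, AC220 1 or DMSO 2. AC220 2 had 2 peaks there, of 504 bp (chr5:140715477-140715980) and 1510 bp (chr5:140766797-140768306), which covered 1.10% of the array. From 140768307 to the end of the locus no library had a peak. This empty stretch of 131.7 kb includes the C-type genes PCDHGC3, PCDHGC4 and PCDHGC5 and the constant exons of gamma. Alpha exceeded gamma by 11.2 ± 8.95 points and beta exceeded gamma by 9.11 ± 8.16 points (SD, n = 4; higher in 4 of 4 libraries; exact permutation p = 0.125 and adjusted p = 0.156 for each). At the common list length these differences were 3.09 and 1.62 points (exact permutation p = 0.125 and 0.25), and with the stricter q 4.68 and 4.06 points (exact permutation p = 0.125 and 0.5). Beta itself was then at 0% in DMSO 2 at the common length, and in DMSO 1 and AC220 1 with the stricter q, so it did not exceed gamma in those libraries. Bare stretches of this length are common in these lists. Of 16581 tiles of 183 kb on chromosomes 1 to 22 and X, unassembled sequence included, 24.5% had no covered base in DMSO 1, AC220 1 and DMSO 2.

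The constant part of alpha differed from its variable part in every library. Both parts are whole stretches of sequence and not exons alone. The constant part was taken as the last 42 kb of the array, which follow the first exon of PCDHAC2 in the known gene order. It was covered over 10.9% in DMSO 1, 10.4% in AC220 1, 40.0% in DMSO 2 and 45.7% in AC220 2. The variable part was covered over 2.47%, 1.43%, 16.4% and 11.5% in that order. The variable part was lower by 18.8 ± 12.4 points on average (mean difference -18.8, SD, n = 4; lower in 4 of 4 libraries; exact permutation p = 0.125, adjusted p = 0.156). The order was the same at the common list length. There the constant part was covered over 9.29% in DMSO 1, 10.4% in AC220 1, 22.2% in DMSO 2 and 11.7% in AC220 2. The variable part then had 1.56%, 1.43%, 0% and 0%. AC220 1, the shortest list, was not cut, and cutting kept the peaks of highest -log10 q. The strongest locus peak of every list lies in the constant part, so this run cannot show that the order is free of list length.

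Measured against the genome, the constant part of alpha was the segment above the genome share in all libraries. Its share was 1.45 times the genome share in DMSO 1, 1.68 times in AC220 1, 2.095 times in DMSO 2 and 2.85 times in AC220 2. Tiles of the same length, 42 kb, unassembled sequence included, had a lower covered share in 78.9%, 81.5%, 78.5% and 84.9% of cases. The part is 5.6% of the locus by length and held 30.5%, 32.2%, 18.8% and 24.0% of its covered bases. The whole alpha array lay below the genome share in set 1 (0.537 and 0.498 times) and slightly above it in set 2 (1.09 and 1.11 times). Against tiles of 227 kb, unassembled sequence included, it lay above the median in every library, with 61.0%, 61.5%, 64.5% and 66.4% of tiles covered less.

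Within the variable part of alpha, the C-type stretch holds PCDHAC1 and PCDHAC2. Its covered share lay between those of the alternate stretch and the constant part in all 4 libraries. The C-type stretch was covered over 2.63% in DMSO 1, 5.88% in AC220 1, 25.7% in DMSO 2 and 20.0% in AC220 2. The alternate stretch, from PCDHA1 to PCDHA13, had 2.41%, 0%, 13.5% and 8.80%. In DMSO 1 the C-type and alternate stretches were nearly equal. The C-type stretch of gamma, which holds PCDHGC3 to PCDHGC5, had 0% in every library, and so did the constant part of gamma, taken as its last 21 kb. The variable and constant parts of gamma therefore differed only by the 2 peaks of AC220 2 (mean 0.31 points, n = 4, positive in 1 of 4 libraries, exact permutation p = 1).

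**Figure D2:**
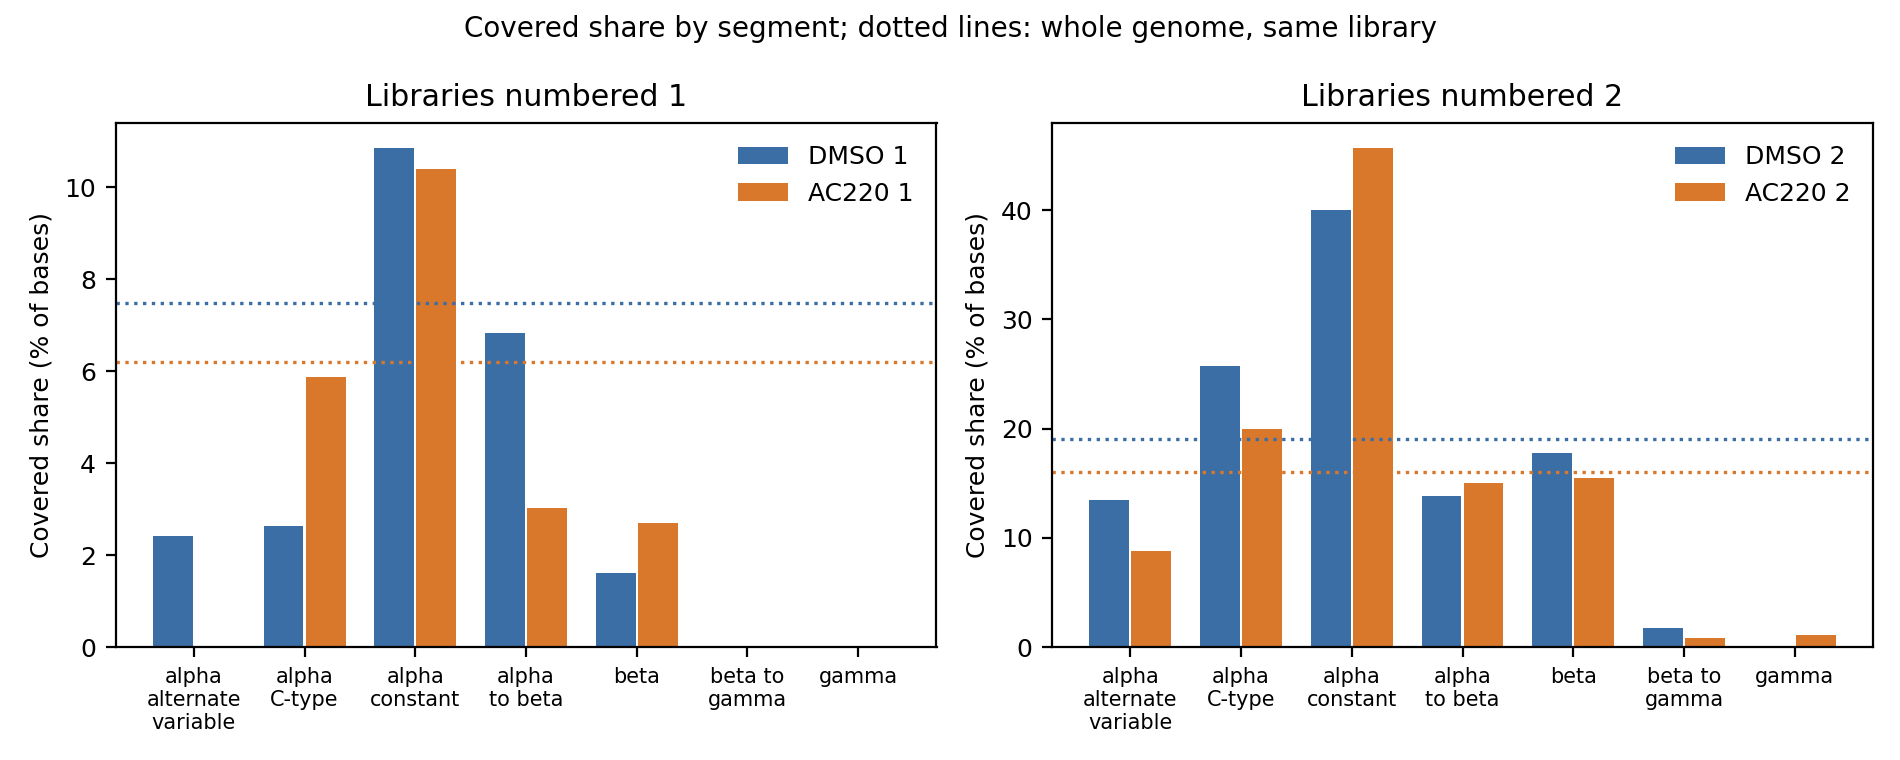
Covered share (percent of bases) of each segment in set 1 (left) and set 2 (right), with 1 bar per library (blue DMSO, orange AC220) and the genome share of the same library as a dotted line; the vertical scales differ. The alpha constant part is the highest bar in each library and gamma the lowest or level with the lowest, except in AC220 2, where the stretch between beta and gamma is lower still.

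Between alpha and beta, 1 site carried the mark in all 4 libraries (chr5:140405172-140410115). It was covered over 2600 bp in DMSO 1, 1148 bp in AC220 1, 4741 bp in DMSO 2 and 4944 bp in AC220 2, and the other covered bases of that stretch belonged to peaks that cross the end of alpha. Between beta and gamma, where SLC25A2 and TAF7 lie, set 1 had no peak. Both libraries of set 2 had 1 peak there, next to the start of gamma (chr5:140707815-140709467), over 1399 bp in DMSO 2 and 675 bp in AC220 2. Both outer flanks were uncovered in every library.

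The 105 peaks of the locus fell into 49 sites once overlapping peaks of different libraries were joined. Of these sites, 6 had a peak in all 4 libraries, 9 in 3 libraries, 7 in 2 and 27 in 1. Every site with a single library belonged to set 2 (13 to DMSO 2 and 14 to AC220 2), and all 7 sites with 2 libraries were shared by DMSO 2 and AC220 2. No site was limited to both DMSO libraries or to both AC220 libraries. Set 2 also covered more of the genome than set 1 (19.1% and 16.04% against 7.49% and 6.20%). Sites were not counted elsewhere in the genome, so this pattern is not shown to be particular to the locus. The alternate variable stretch of alpha held 11 sites and the beta array 19, of which 0 and 2 had a peak in all 4 libraries. The constant part of alpha had 7 sites, and 2 of them were in all 4.

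One of these sites in the alpha constant part (chr5:140379384-140384297) held the strongest peak of the locus in every library, ranked by the authors' -log10 q within each list. That peak had a -log10 q of 2.25 in DMSO 1, 2.01 in AC220 1, 4.01 in DMSO 2 and 3.45 in AC220 2, and values of different lists are not compared. The site was covered over 717 bp in DMSO 1, 1716 bp in AC220 1, 3524 bp in DMSO 2 and 4914 bp in AC220 2, so AC220 was higher in both sets. The other site of the constant part (chr5:140359849-140370115) was the widest of the locus. It was covered over 3186 bp in DMSO 1, 2651 bp in AC220 1, 5806 bp in DMSO 2 and 10247 bp in AC220 2, with AC220 lower in set 1 and higher in set 2. The AC220 2 peak there was the only peak of the locus of at least 10 kb.

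In the beta array, the site at chr5:140464196-140473022 was covered over 1716 bp in DMSO 1, 3148 bp in AC220 1 and 7343 bp in each of DMSO 2 and AC220 2. It held the widest locus peak of AC220 1 (2592 bp), and the 1 kb window that starts at 140467001 was wholly covered in all 4 libraries. The other shared beta site (chr5:140598538-140602340) had 1511 bp in DMSO 1, 962 bp in AC220 1, 3731 bp in DMSO 2 and 3123 bp in AC220 2, lower with AC220 in both sets. The shared site of the alpha C-type stretch (chr5:140307278-140310615) had 241 bp, 765 bp, 2870 bp and 1795 bp in the same order, so the sets went in opposite directions. Of the 6 shared sites, 1 was lower with AC220 in both sets, 1 was higher in both, 3 went in opposite directions and 1 was equal in set 2.

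**Figure D3:**
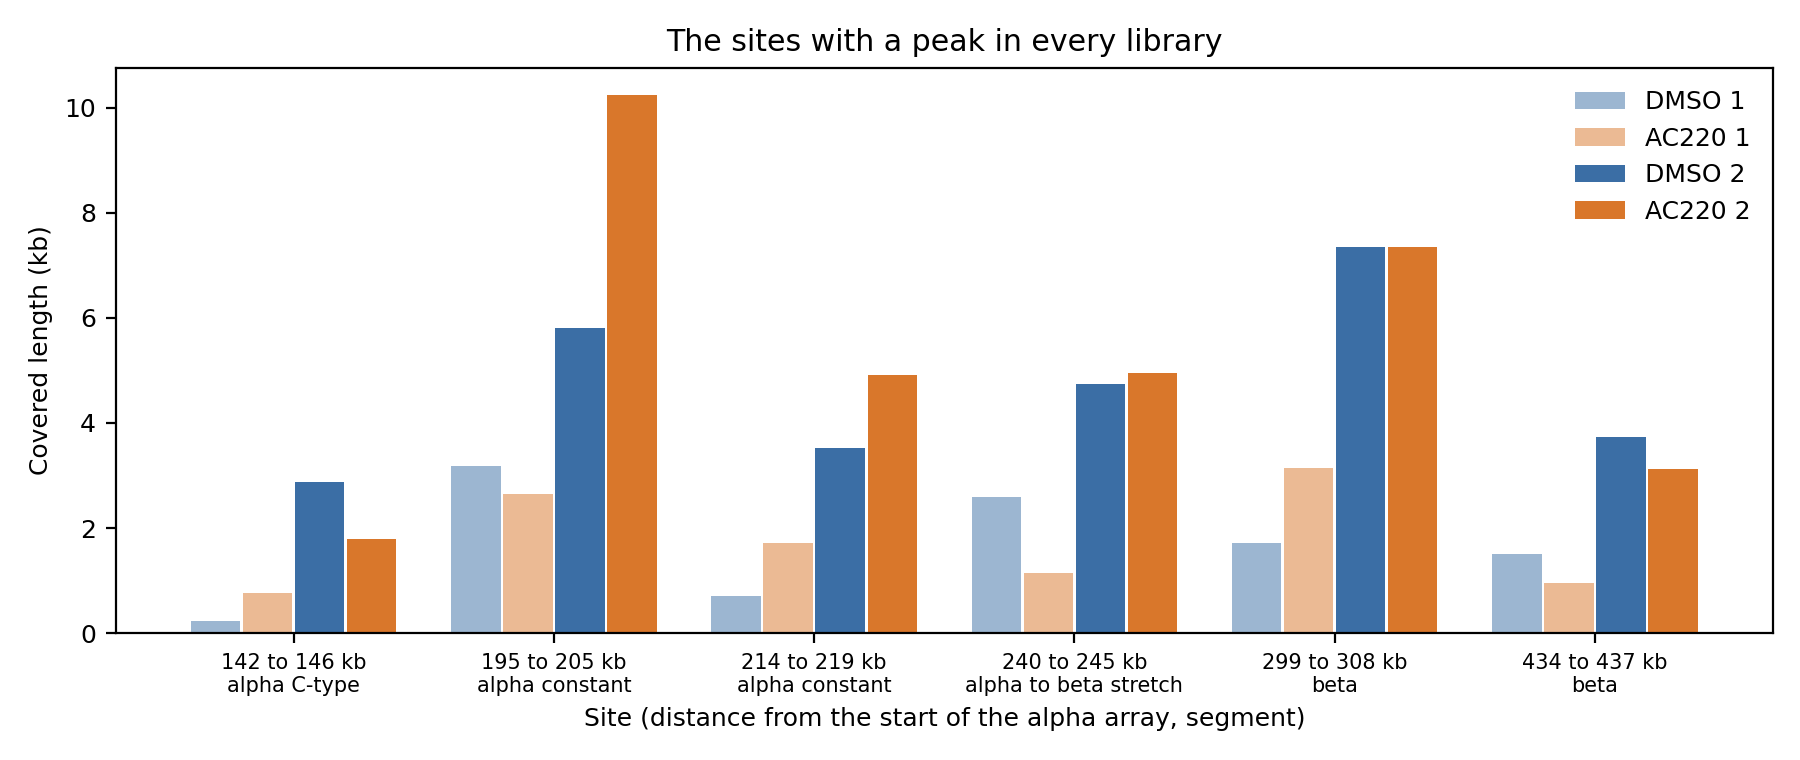
Covered length (kb) of the 6 sites with a peak in every library, placed by distance from the start of the alpha array, with 1 bar per library (blue DMSO, orange AC220; pale set 1, full colour set 2). In all 6 sites both bars of set 2 are longer than both bars of set 1, and treatments have no common order.

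Peaks of the locus were narrower than the median of their lists, with a like fold and a slightly lower -log10 q. Their median width was 877 bp in DMSO 1, 776.5 bp in AC220 1, 1828 bp in DMSO 2 and 1271 bp in AC220 2, against 1211, 996, 2321 and 1612 bp over the whole lists. The authors' fold enrichment, a ratio over a background whose source is not given, had a locus median of 2.86, 2.68, 2.101 and 2.14. The list medians were 2.85, 2.67, 2.101 and 2.13. The strongest locus peak was exceeded in -log10 q by 8.32% of the peaks of DMSO 1, 13.0% of AC220 1, 4.76% of DMSO 2 and 4.46% of AC220 2. The median -log10 q was 1.46, 1.21, 1.65 and 1.63 in the locus and 1.55, 1.32, 1.72 and 1.65 in the lists. Peaks with a -log10 q of at least 2 numbered 1 of 14, 1 of 14, 12 of 36 and 10 of 41, each a smaller share than the 16.5%, 13.2%, 35.8% and 29.6% of the lists.

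**Figure D4:**
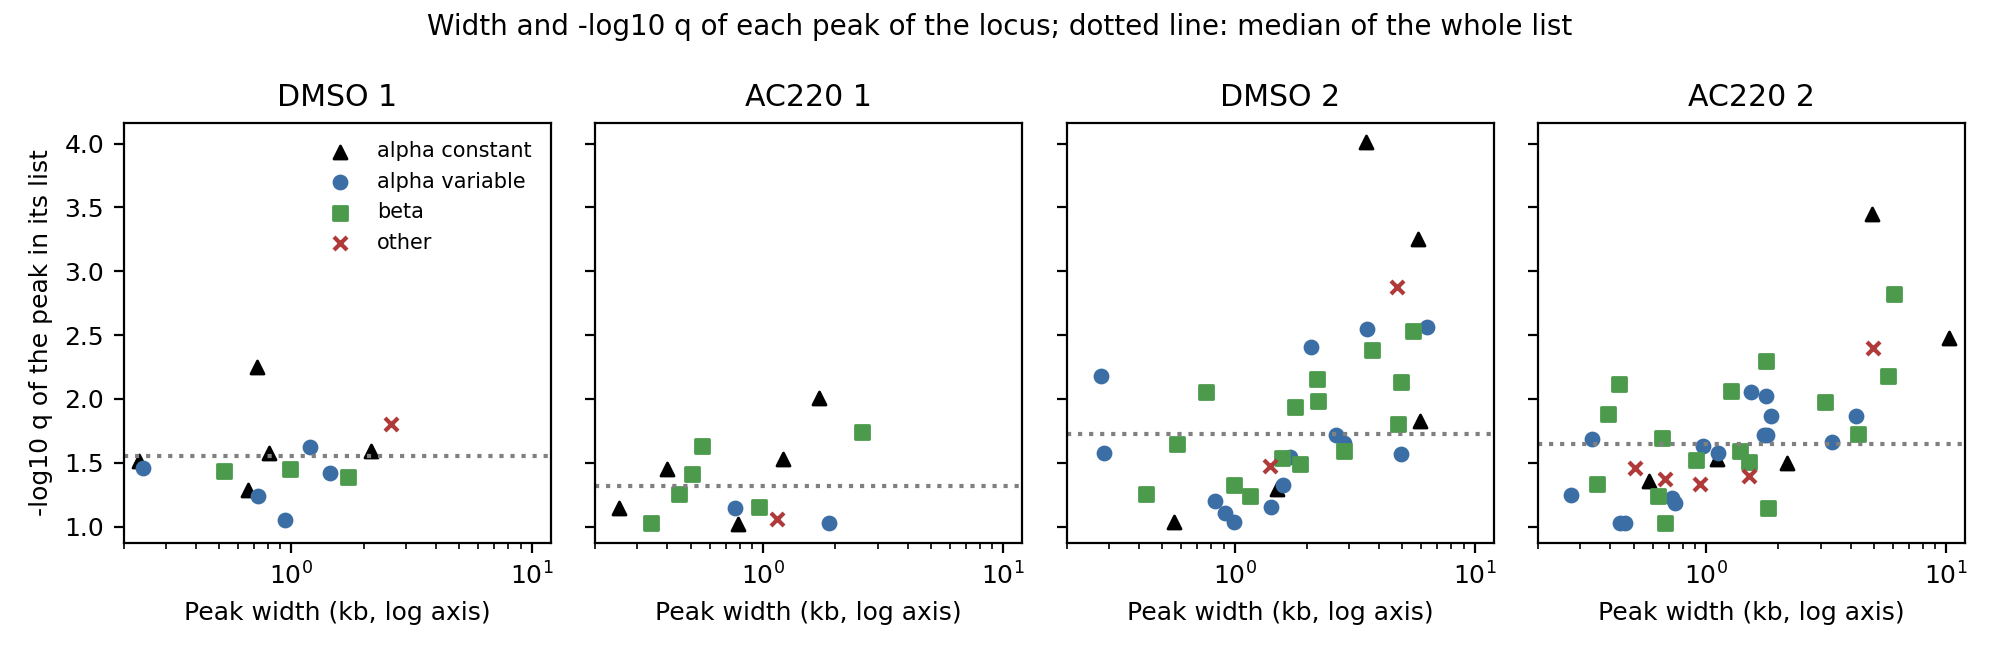
Width (kb, log axis) and the authors' -log10 q of each peak of the locus, 1 panel per library, with symbols for its segment and a dotted line at the median -log10 q of the whole list. The highest point of every panel is a peak of the alpha constant part.

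The treatments were then compared within each set and over both. Covered share of the locus was lower with AC220 in both sets, with differences of -0.186 points in set 1 and -1.26 points in set 2. The genome share was also lower with AC220, and relative to it the locus had the opposite direction in both sets (0.266 with DMSO and 0.292 with AC220 in set 1, 0.624 and 0.664 in set 2). The DMSO mean was 6.95% ± 7.01 and the AC220 mean 6.23% ± 6.26 (SD, n = 2). The log2 ratio of AC220 to DMSO was -0.13 (on covered percent plus 0.5; exact permutation test, two-sided, p = 0.667), smaller than the SD of either treatment; 2 libraries against 2 cannot give a p below 0.333. The direction did not hold throughout: the log2 ratio was 1.00 without AC220 1 and 1.02 without DMSO 2, either of which leaves the sets unbalanced. It was 0.31 with each DMSO list cut down to match its AC220 list, 0.21 with all lists at equal length and 0.068 with peaks of -log10 q of at least 2.

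Alpha and beta also differed between treatments by less than the SD of either treatment. That SD (n = 2) is taken across set 1 and set 2, so it holds the gap between the sets. It does not measure the error of a difference within a set. Alpha had a DMSO mean of 12.4% ± 11.9 and an AC220 mean of 10.5% ± 10.4 (SD, n = 2), a log2 ratio of -0.27 (exact permutation p = 0.667; -0.33 in set 1 and -0.21 in set 2). Its direction turned in the same settings as that of the locus, except at equal length: 0.90 without AC220 1, 0.84 without DMSO 2, 0.24 with DMSO lists trimmed to their AC220 lists and 0.21 with the stricter q. Beta was 9.68% ± 11.4 and 9.10% ± 9.05 (SD, n = 2), and its log2 ratio of 0.21 was positive although the mean share was lower, because set 1 was higher with AC220 (0.60) and set 2 lower (-0.19; exact permutation p = 1). Without DMSO 1 the beta ratio was -1.35, without AC220 2 it was -0.96 and with the stricter q -0.080; it was 2.09 at the common list length, 0.80 with DMSO lists cut to match AC220, 1.37 without AC220 1 and 1.76 without DMSO 2. Gamma was 0% in both DMSO libraries and 0% and 1.10% with AC220 (log2 ratio 0.84, exact permutation p = 1), a difference made by AC220 2 alone.

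Parts of the alpha array went different ways. The alternate variable stretch had less coverage with AC220 in both sets. In it, 3.38 kb were covered in DMSO 1 and none in AC220 1, and 18.8 kb in DMSO 2 against 12.3 kb in AC220 2. With cut lists, only the whole variable part of alpha was measured, which includes the C-type stretch. Its difference between treatments depended on list length in both sets. In the full lists it had 2.47% in DMSO 1 and 1.43% in AC220 1. With the DMSO list cut to match, these were 1.56% and 1.43%. In set 2 it had 8.04% in DMSO 2 and 11.5% in AC220 2 with the DMSO list cut to match, and 0% in both at the common length. The alternate stretch alone was not measured with the DMSO list cut to match. The constant part differed by -0.467 points with AC220 in set 1, which is lower, and was 5.75 points higher in set 2. The C-type stretch was 3.24 points higher in set 1 and lower in set 2, with a difference of -5.70 points. The balance of alpha to beta, as the log2 ratio of their shares, averaged 0.66 ± 0.62 under DMSO and 0.18 ± 0.02 under AC220 (SD, n = 2; difference -0.48; exact permutation p = 0.333, the smallest that this test can give). It was 0.29 in the other direction with the stricter q, -2.46 at the common list length, -0.042 without DMSO 1 and -0.92 without DMSO 2. For alpha against gamma and beta against gamma the differences were -1.11 and -0.63 (exact permutation p = 0.667 and 1). Without DMSO 2 both were positive, at 0.0050 and 0.92. Alpha against gamma was also 0.21 with the stricter q, and beta against gamma 2.09 at equal length. Gamma was at 0% in every library in those runs, so these values repeat the alpha and beta ratios and say nothing of gamma.

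Windows of 1 kb gave few differences. To count as lower with AC220, a window needed both DMSO shares to lie 25 points or more above both AC220 shares; to count as higher, the opposite. One of the 750 windows (0.133%) was lower, against 0.542% of all windows of the genome, and none was higher, against 0.167%. The window (chr5:140598001-140599000, beta array) was covered over 46.3% in DMSO 1 and 39.1% in DMSO 2, and not at all in AC220 1 or AC220 2. It holds the left edge of the shared beta site at chr5:140598538-140602340, which had a peak in all 4 libraries. The AC220 peaks of that site start past the window, at 140599679 in AC220 1 and 140599005 in AC220 2. The next window was covered over 52.2% in DMSO 1, 32.2% in AC220 1, 100% in DMSO 2 and 99.6% in AC220 2. The call therefore concerns the edge of a shared site. The window was not called with the stricter q or at a separation of 50 points. Both counts rested on having 2 libraries a treatment. Lower windows numbered 51 without DMSO 1, 15 without AC220 2 and 2 without DMSO 2. Higher windows numbered 36 without AC220 1 and 13 without DMSO 2. The genome share was not computed for these runs, so their counts are not a result about the locus.

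Windows covered over at least 50% in all 4 libraries numbered 4 of 750 (0.533%), against 4.07% of the genome. Of these, 3 were in the constant part of alpha, which has 42 windows (7.14%), and start at 140365001, 140366001 and 140381001. The other one is the beta window that starts at 140467001. Without DMSO 1 there were 13 such windows in the remaining libraries and without AC220 1 there were 12. With all lists at equal length, or with the stricter q, there was 1. No genome share was computed for these runs either. Of the 750 windows, 584 had no covered base in any library, 79 were touched in 1, 48 in 2, 28 in 3 and 11 in all 4. By segment, windows touched in any library made up 73.8% of the alpha constant part and 46.7% of the alpha C-type stretch. They made up 25.7% of the alternate variable stretch of alpha, 32% of beta and 2.19% of gamma.

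Counted in bases, 116.0 kb of the locus were covered in any library and 4.73 kb in all 4. Set 2 alone covered 33.7 kb in both of its libraries, 34.0 kb in DMSO 2 only and 24.6 kb in AC220 2 only. The DMSO pair covered 0.424 kb that AC220 lacked, and the AC220 pair covered 0.378 kb that DMSO lacked. The crossed combinations were of like size, with 0.597 kb in DMSO 1 and AC220 2 alone and 0.549 kb in DMSO 2 and AC220 1 alone. Of the covered bases of DMSO 1, 88.6% lay in peaks of DMSO 2 and 89.7% in peaks of AC220 2. For AC220 1 these shares were 97.1% in DMSO 2 and 95.7% in AC220 2. The libraries of set 1 shared only 4.75 kb, which is 31.8% of DMSO 1 and 35.0% of AC220 1. Such overlaps were not counted over the genome, so they are not shown to be particular to the locus.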

How the data were processed

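The submitters' processing notes list the tools BWA 0.7.10-r789 and MACS2 2.1 but say nothing of their roles. The authors deposited 1 list of broad peaks per immunoprecipitated library, so peaks were not called on pooled samples. Per the broad peak column order, the deposited fold is a ratio over a background, the deposited p and q of each peak are -log10 values, and the deposited score is a rounded form of the -log10 q. GRCh37 was inferred from contig names, with chromosome 5 peaks ending by 180905124 of its 180915260 bases. The build itself, and whether inputs or Drosophila reads entered peak calling, are not given in the sources used here.

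Covered shares were computed in Python 3.11.15 (pandas 2.3.3, numpy 2.4.6) and drawn with matplotlib 3.10.9. Segments were compared within libraries by exact sign-flip tests and treatments by exact permutation over 6 assignments, on log2 of covered percent plus 0.5. The constant parts (last 42 kb of alpha, last 21 kb of gamma) and the C-type stretches (from 87 and 38 kb before the array ends) follow textbook gene order, in the absence of a GRCh37 annotation here. Trimming kept the peaks of highest -log10 q. The window rule was tested on simulated data. Named were the segments, the leading peaks, the called windows and the sites shared by all libraries; the joining into sites and the tiles were added after the values had been seen. Members and lists were chosen with earlier results of these data known.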

Additional observations from a re-analysis of the deposited data

How the results depend on the processing

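Depth is unknown, so the listed peaks set what could be seen. There were 5 comparisons of segments within libraries. The 3 between arrays and that of the alpha parts kept the direction of their mean in every alternative run. Those with beta did not keep it in every library. Outside the left-out libraries the differences ran in points from 0.615 to 2.13 for alpha to beta and 3.09 to 11.4 for alpha to gamma. They ran from 1.62 to 9.59 for beta to gamma and -20.9 to -12.7 for the alpha parts. The gamma parts had a difference of 0 with the stricter q, at equal length and without AC220 2. Leaving out a library gave 0 to 0.414 for the gamma parts. Leaving out each library in turn, the log2 ratio of AC220 to DMSO ran from -1.29 to 1.02 for the locus, -1.45 to 0.90 for alpha, -1.35 to 1.76 for beta and 0 to 1.68 for gamma. The balance of alpha to beta ran from -0.92 to -0.042, that of alpha to gamma from -2.23 to 0.0050 and that of beta to gamma from -2.19 to 0.92. With the stricter q the values were 0.068 for the locus, 0.21 for alpha, -0.080 for beta, 0 for gamma, 0.29 for alpha to beta and 0.21 for alpha to gamma, with 0 windows lower and 1 covered in all. With DMSO lists trimmed to their AC220 lists they were 0.31 for the locus, 0.24 for alpha and 0.80 for beta, with 3 windows higher. At equal length they were 0.21 for the locus, 2.09 for beta, 0 for gamma, -2.46 for alpha to beta and 2.09 for beta to gamma, with 3 windows lower, 3 higher and 1 covered in all. With the stricter q and at equal length, gamma was at 0% in every library, so balances with gamma there repeat the alpha or beta ratio. A separation of 10 points gave 1 window higher, one of 50 points 0 lower, and windows of 500 bp gave 0.5 kb in each direction. Leaving out a library gave 1 to 51 windows lower, 0 to 36 higher and 4 to 13 covered in all. The genome share of such windows was computed for the main setting only. The cause of these changes was not tested. The labels give only a shared number. With it as a replicate block the locus ratio was -0.13 by construction (exact sign-flip p = 0.5, the smallest possible with 2 sets). The mean of the within-set differences equals the difference of the treatment means, so this run cannot check any direction.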

Other observations

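C-type promoters were rich in CpG in both arrays, while the stretches that hold them differed in coverage. In the 250 bases before the start, the 2 alpha C-type genes had 13 and 18 CpG and the 2 gamma C-type genes with a sequence had 13 and 15, against medians of 5 for the alternate alpha genes, 4 for the A-type and 9 for the B-type gamma genes. The B-type genes ranged from 6 to 14, so they overlapped the C-type genes. The median over all genes of the table was 11. The alpha C-type stretch was covered over 2.63% to 25.7% in the 4 libraries and the gamma C-type stretch over 0% in each. These are descriptions of 2 stretches on different builds, with no test.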
